A study of Mus musculus with 28 samples.

Results

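Aldh1l2 and 9 genes of the same stress and amino acid programme (Mthfd2, Shmt2, Phgdh, Psat1, Psph, Asns, Chac1, Trib3 and Ddit4) were followed in the mouse pituitary after paradoxical sleep deprivation (PSD) and restraint. They were found by symbol, and all 10 were among the 32594 genes of the count table. Aldh1l2 was chosen by its own readout in these mice, a higher level after sleep deprivation, so its values are given as a description without a test. The other 9 were listed as genes driven by the transcription factor ATF4, with earlier results of these data known. Their counts beside the shares of all genes are therefore not an independent check. The tissue was the whole pituitary of C57BL/6J mice aged 8 weeks, 16 females and 12 males, each mouse giving 1 library. Controls stayed in the home cage, a restraint group was held in a tube for 20 min, a PSD group stood on small platforms over water for 12 h, and a PSD + restraint group had the restraint 18 h after the end of PSD. Tissue was taken 10 min after restraint. Each female group had 4 mice, and the males had 4 controls, 2 restrained, 3 PSD and 3 PSD + restraint mice. All mice, controls included, had first been adapted to the PSD tanks, and all were killed by CO2 and decapitation. Mice were housed by sex and cage mates shared a tank, and which mice shared one is not given in the sources used here, so an effect of cage or tank cannot be told apart from one of the group.

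ATF4 is made when the integrated stress response slows general translation, as happens when amino acids run short or the endoplasmic reticulum is under load. It switches on genes that make serine from glucose (Phgdh, Psat1, Psph), pass the carbon of serine to folate in mitochondria (Shmt2, Mthfd2, Aldh1l2), make asparagine (Asns), and act in stress signalling and redox balance (Chac1, Trib3, Ddit4). The pituitary secretes large amounts of peptide hormone, and hormone transcripts make up much of its RNA.

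In males, 3 of the one-carbon and serine genes were higher with PSD averaged over restraint, a comparison added after the values were seen. Mthfd2, Phgdh and Psat1 were 1.36 to 1.47 times their level in mice without PSD, where 0.454% of all genes passed. Aldh1l2 stood at 2.15 times. None of the 3 passed without male restraint 2, male PSD 3 or male PSD + restraint 2, and none of the 9 tested genes passed after PSD alone against controls. In females the same average put Aldh1l2 at 1.46 times, and none of the 9 passed, where 2.88% of all genes did, with Psat1 at 1.37 and Trib3 at 1.64 times. Ddit4 rose after restraint in males. The sexes were not shown to differ in any response.

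The libraries held 14024465 to 52948531 counts, and the lowest count of any of the 10 genes in any mouse was 72. Values are CPM, a gene's counts scaled to a common library size after TMM normalisation. Genes were tested with edgeR's quasi-likelihood test within each sex or over all mice, and a gene passed when its adjusted p was at most 0.05 and its fold change at least 1.25 in either direction. The 8 pituitary hormone and lineage markers were above 0 in every mouse. The library of male control 1 was low in markers of the intermediate and posterior lobes (Rax 0.318 CPM, against 3.01 to 8.40 in the other males), and female PSD 1 was high in forebrain markers (Slc17a7 60.7 CPM, against 8.30 to 45.9 in the other females). In whole tissue, more RNA per cell and more cells of a type cannot be told apart.

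Aldh1l2 (chr10:83487450-83534140, minus strand, mm10, gene ends from GENCODE M21 as for the genes below), the mitochondrial enzyme that oxidises formyl-tetrahydrofolate to CO2 with formation of NADPH, was at 11.8, 12.0, 13.9 and 15.6 CPM in the 4 control males. The 2 restrained males had 11.3 and 13.5 CPM. The PSD males had 23.1, 26.3 and 27.0 CPM, and the PSD + restraint males 26.1, 31.8 and 32.0 CPM. Every male with PSD was thus above every male without it. Relative to control males the fitted fold was 1.92 after PSD (log2 0.94 ± 0.11, SE), 2.25 after PSD + restraint (1.17 ± 0.11) and 0.935 after restraint (-0.10 ± 0.13).

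Female values overlapped more. The controls had 5.44, 6.2, 8.78 and 12.8 CPM and the restrained females 7.40, 9.82, 11.1 and 11.3 CPM. The PSD females had 9.51, 10.6, 15.5 and 16.8 CPM and the PSD + restraint females 10.6, 11.8, 12.7 and 17.6 CPM. The highest control overlapped both PSD groups, and the fitted log2 change was 0.66 ± 0.26 after PSD and 0.68 ± 0.26 after PSD + restraint. Control females were at 8.30 ± 3.31 CPM (SD, n = 4) and control males at 13.3 ± 1.79 (n = 4), and the highest female control lay within the male range. In order of mean level, the female control, female restraint, male restraint, female PSD, female PSD + restraint and male control groups ran from 8.30 to 13.3 CPM with neighbours overlapping, and the male PSD (25.4 ± 2.07, n = 3) and male PSD + restraint (30.0 ± 3.37, n = 3) groups stood above all of them.

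Exons of Aldh1l2 share 1056 bases (14.1% of its exonic length) with D10Wsu102e on the opposite strand, and whether the counting used strand is not given in the sources used here, so reads of the pair could have been mixed. D10Wsu102e itself was at 27.6 ± 1.49 CPM in control males (n = 4) and 26.7 ± 2.68 in PSD males (n = 3), a log2 change of -0.04 ± 0.09.

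**Figure D1:**
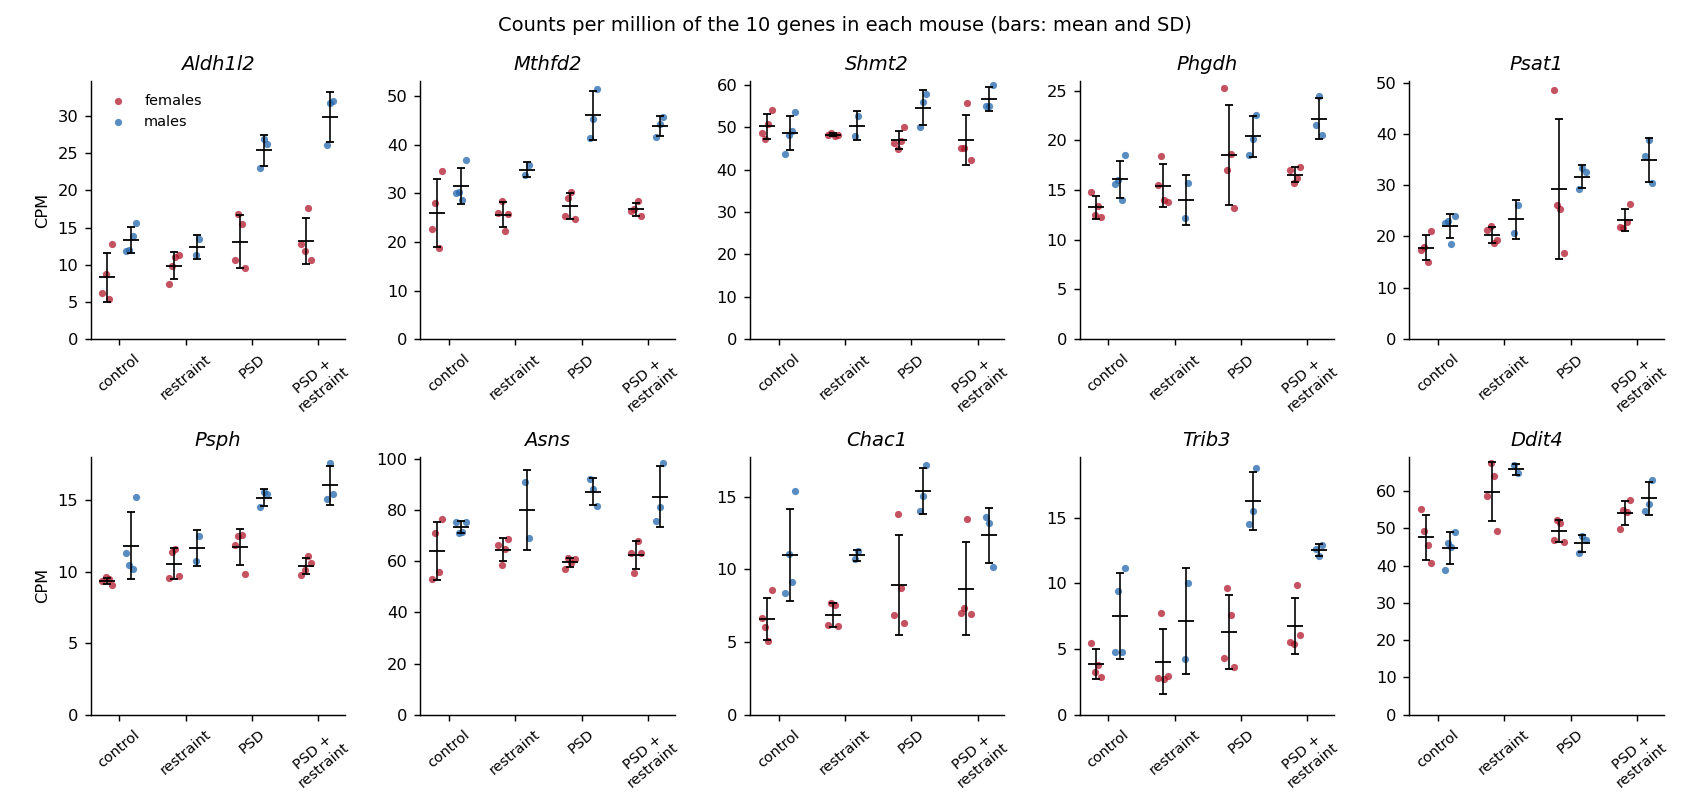
CPM of the 10 genes (vertical axis, linear from 0) in each mouse, by treatment group (horizontal axis); females in red, males in blue, black bars the group mean and SD. Aldh1l2 in the males with PSD (23.1 to 32.0 CPM) lay above all males without it (11.3 to 15.6 CPM), and among males Ddit4 was highest in the 2 given restraint alone (64.9 and 67.0 CPM).

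The other 9 genes all passed the filter on low counts in each fit, and they are counted here against all genes tested (18059 in females, 18271 in males, 18936 over all mice). After PSD + restraint in males, 4 of the 9 rose against controls (Mthfd2, Phgdh, Psat1 and Ddit4), where 2.56% of all genes passed in either direction. Their median log2 change was 0.44, against -0.01 over all genes, and all 9 values were positive. After PSD alone in males none of the 9 passed, where 0.00547% of all genes did, that is 1 gene. At an unadjusted p under 0.05 the count in edgeR was 8 of 9, all higher, against 8.85% of all genes. DESeq2 called 2 (Mthfd2 and Psat1). On simulated counts of this comparison DESeq2 made 31 false calls and edgeR 8. Both comparisons share the control males. The 4 calls after PSD + restraint became 2 without male control 1 or male PSD + restraint 1, and 1 without male control 3 or male PSD + restraint 2; Psat1 was among them each time.

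Averaged over restraint, a comparison added within each sex after the values were seen, PSD raised 3 of the 9 genes in males (Mthfd2, Phgdh and Psat1), where 0.454% of all genes passed. It raised none in females, where 2.88% of all genes passed. In females 5 of the 9 were at an unadjusted p under 0.05 in edgeR, all higher, against 27.4% of all genes, and DESeq2 called Psat1 and Trib3. The count in males was 0 without male restraint 2, male PSD 3 or male PSD + restraint 2, and 1 without male control 3 or male PSD + restraint 1. In females it was 2 (Phgdh and Psat1) without PSD 4 and 1 (Trib3) without restraint 2.

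Over all mice with sex as a term, PSD averaged over restraint raised Phgdh, Psat1 and Trib3 (3 of 9, against 2.52% of all genes). The median log2 change of the 9 was 0.26, against 0.00 over all genes, and Psat1 and Trib3 passed whichever 1 of the 28 mice was left out. PSD against control raised Psat1 and Psph (2 of 9, background 0.671%), a count that ranged from 0 to 4 as mice were left out and moved by over 1.5 times for 23 of the 28. PSD + restraint against control raised Phgdh, Psat1 and Trib3 (3 of 9, background 5.46%), and none passed without male PSD + restraint 2.

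Other comparisons within a sex gave fewer calls. In females none of the 9 passed after restraint (background 0.543%), PSD (0.0277%) or PSD + restraint (2.2%) against controls, or for PSD + restraint against restraint (0.0332%) or PSD (0.941%). At an unadjusted p under 0.05 edgeR had 1, 3, 2, 0 and 0 of 9 in these 5 comparisons. The shares of all genes at that p were 9.77, 19.8, 20.2, 14.1 and 10.5% in the same order. DESeq2 called Psat1 alone, after PSD. Without female PSD 4, Phgdh, Psat1 and Psph passed after PSD. In males, PSD + restraint against restraint gave none (background 0.00547%), with 4 at an unadjusted p under 0.05 in edgeR, against 10.5% of all genes. DESeq2 called Phgdh and Psat1 there. PSD + restraint against PSD also gave none (0.285%), with 1 at an unadjusted p under 0.05, against 10.3% of all genes, and none by DESeq2. The interaction of PSD and restraint passed for none of the 9 in females, males or all mice, and for 0% of all genes in each. At an unadjusted p under 0.05 edgeR had 1, 0 and 0 of 9, against 4.24, 3.84 and 3.92% of all genes. DESeq2 called none.

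**Figure D2:**
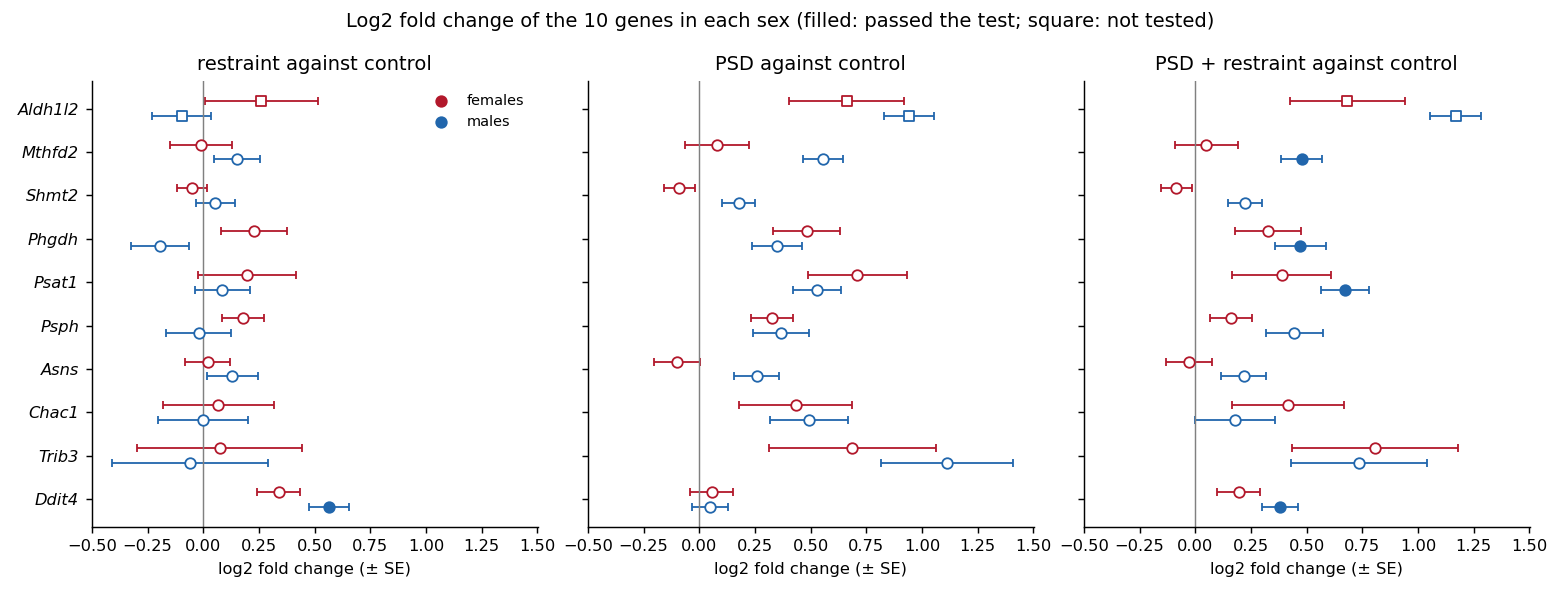
Log2 fold change (horizontal axis) with its standard error for each of the 10 genes (rows) in females (red) and males (blue), after restraint, PSD and PSD + restraint against controls of the same sex; filled circles passed the test and squares (Aldh1l2) were not tested. The filled points are Ddit4 after restraint in males (0.56) and Mthfd2, Phgdh, Psat1 and Ddit4 after PSD + restraint in males (0.38 to 0.67).

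Mthfd2 (chr6:83305691-83325908, minus strand), the mitochondrial dehydrogenase and cyclohydrolase that precedes Aldh1l2 in the pathway, was at 28.6, 30.1, 30.4 and 36.9 CPM in control males and 33.9 and 36.0 CPM in restrained males. PSD males had 41.4, 45.3 and 51.5 CPM and PSD + restraint males 41.6, 44.2 and 45.8 CPM. No male with PSD overlapped a male without it. The log2 change after PSD + restraint was 0.48 ± 0.09 (edgeR adjusted p = 0.0173) and after PSD 0.55 ± 0.09 (adjusted p = 0.0896). In females the 4 groups had means of 25.7 to 27.4 CPM, controls spanned 18.7 to 34.7 CPM, and the log2 change after PSD was 0.08 ± 0.14 (adjusted p = 0.795).

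Shmt2, which transfers the carbon of serine to tetrahydrofolate in mitochondria, was not called in any comparison. It was at 48.6 ± 4.03 CPM in control males (n = 4) and 54.7 ± 4.07 in PSD males (n = 3), with overlap. In PSD + restraint males its 55.1, 55.1 and 60.0 CPM lay above the highest control (53.6 CPM), a log2 change of 0.23 ± 0.08 (edgeR adjusted p = 0.144). In females it was at 50.3 ± 2.95 CPM in controls and 47.0 ± 2.18 after PSD (n = 4 each).

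Psat1 (chr19:15904678-15947337, minus strand), the aminotransferase of the middle step of serine synthesis, rose in males after PSD + restraint. Control males had 18.6, 22.6, 23.0 and 24.0 CPM and restrained males 20.6 and 26 CPM. PSD males had 29.2, 32.5 and 33.3 CPM and PSD + restraint males 30.4, 35.7 and 38.8 CPM, all above every male without PSD. The log2 change after PSD + restraint in males was 0.67 ± 0.11 (edgeR adjusted p = 0.00676), and leaving out each of the 12 males gave adjusted p of 0.00457 to 0.0465.

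In females Psat1 was at 15.1, 17.3, 18.0 and 21.0 CPM in controls and 16.7, 25.4, 26 and 48.6 CPM after PSD. The lowest PSD female lay among the controls and the highest was female PSD 1. The 4 PSD + restraint females (21.7, 21.9, 22.8 and 26.3 CPM) all lay above the controls. The log2 change after PSD was 0.71 ± 0.22 (edgeR adjusted p = 0.136), and 0.34 without female PSD 1 (adjusted p = 0.282). That mouse also had the highest Phgdh of the females (25.3 CPM) and the highest S100b (35.3 CPM, against 1.49 to 11.1 in the other females). S100b marks glia, and it was listed here among markers of folliculostellate and stem cells, which belong to the pituitary. The part of other tissue or of these cells in the values was not tested. Over all mice the change of Psat1 with PSD averaged over restraint was 0.49 ± 0.10 (adjusted p = 0.00630), and 0.39 without female PSD 1 (adjusted p = 0.00289).

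Phgdh (chr3:98313170-98339990, minus strand), the enzyme of the first committed step, was at 14 to 18.6 CPM in control males and 12.2 and 15.7 CPM in restrained males. PSD males had 18.6, 20.1 and 22.6 CPM and PSD + restraint males 20.5, 21.6 and 24.5 CPM. Only the lowest PSD male overlapped the controls. The log2 change after PSD + restraint was 0.47 ± 0.11 (edgeR adjusted p = 0.0458), a call kept in 4 of the 12 fits that left out a male. In females Phgdh was at 13.3 ± 1.14 CPM in controls, 18.5 ± 5.04 after PSD and 16.6 ± 0.720 after PSD + restraint (n = 4 each). Over all mice the log2 change was 0.36 ± 0.08 (adjusted p = 0.00911), and 0.31 without female PSD 1, just under the fold needed. It was also 0.32, under that fold, when a score of forebrain markers was a term in the fit.

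Psph, the phosphatase of the last step, was at 9.10 to 9.59 CPM in control females and 9.86, 11.9, 12.5 and 12.6 CPM in PSD females. The groups did not overlap, and the log2 change was 0.33 ± 0.09 (edgeR adjusted p = 0.127). In males, 3 controls had 10.2 to 11.3 CPM and the fourth 15.2 CPM, within the range of the PSD males (14.5 to 15.6 CPM) and PSD + restraint males (15.1 to 17.6 CPM). Over all mice the change after PSD was 0.34 (adjusted p = 0.0497), a call that held in 7 of 28 fits without 1 mouse. Exons of Psph share 452 bases (10.4%) with Cct6a on the opposite strand, whose log2 change after PSD over all mice was -0.21 ± 0.07.

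Asns (chr6:7675169-7693254, minus strand), asparagine synthetase, passed in no comparison. Control males had 71.2 to 75.4 CPM, PSD males 81.5 to 92.1 CPM and PSD + restraint males 75.7 to 98.6 CPM. No PSD or PSD + restraint male overlapped the controls, but 1 restrained male was at 91.2 CPM. The log2 change after PSD in males was 0.26 ± 0.10 (edgeR adjusted p = 0.510), and in females -0.10 ± 0.10 (adjusted p = 0.623). Per exonic kilobase Asns was, with Ddit4, the most abundant of the 10 genes in control males (26.8 ± 0.830 and 25.5 ± 2.49 CPM per kb, SD, n = 4), and Aldh1l2 the least (1.78 ± 0.238).

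Trib3 (chr2:152337422-152344032, minus strand), a pseudokinase induced in the stress response, was at 4.75, 4.76, 9.43 and 11.2 CPM in control males. PSD males had 14.5, 15.5 and 18.8 CPM and PSD + restraint males 12.1, 12.7 and 13 CPM, all above the controls. The 2 restrained males had 4.27 and 10.0 CPM. In males the log2 change after PSD was 1.11 ± 0.30 (edgeR adjusted p = 0.293). Over all mice with PSD averaged over restraint it was 0.82 ± 0.19 (adjusted p = 0.0131), with an adjusted p of 0.00121 to 0.0291 as each of the 28 mice was left out.

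In females Trib3 was at 2.91 to 5.48 CPM in controls and 3.62, 4.31, 7.56 and 9.66 CPM after PSD. PSD + restraint females had 5.41, 5.52, 6.09 and 9.90 CPM. The groups overlapped in both comparisons. The log2 change after PSD was 0.69 ± 0.37, and 0.13 with a score of intermediate and posterior lobe markers as a term in the fit (adjusted p = 0.318 and 0.890); over all mice with PSD averaged over restraint, the same term gave 0.67 (adjusted p = 0.0442).

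Chac1 (chr2:119351229-119354381, plus strand), which degrades glutathione, was at 8.36, 9.16, 11 and 15.4 CPM in control males and 14.1, 15.0 and 17.2 CPM in PSD males. In PSD + restraint males it was at 10.2, 13.2 and 13.6 CPM, below the PSD males and among the controls. The log2 change in males was 0.49 ± 0.17 after PSD (edgeR adjusted p = 0.447) and 0.18 ± 0.18 after PSD + restraint (adjusted p = 0.651). In females 1 mouse of the PSD group (13.8 CPM) and 1 of the PSD + restraint group (13.5 CPM) stood above the other 14, which had 5.10 to 8.71 CPM. Over all mice with PSD averaged over restraint the change was 0.37 ± 0.12 (adjusted p = 0.0596), and DESeq2 called it (log2 0.36, adjusted p = 0.0341).

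Ddit4 (chr10:59949669-59951834, minus strand), an inhibitor of mTOR signalling that glucocorticoids also induce, rose after restraint. Control males had 38.7, 45.1, 46 and 49.1 CPM, PSD males 43.4, 46.8 and 47.9 CPM, restrained males 64.9 and 67.0 CPM and PSD + restraint males 54.7, 56.5 and 63.0 CPM. Every restrained male was above every male not restrained. It rose after restraint in males (log2 0.56 ± 0.09, edgeR adjusted p = 0.0177), 1 of the 9 genes, where 0.296% of all genes passed; this was lost without either restrained male or without male control 3.

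In females Ddit4 was at 40.8 to 55.1 CPM in controls and 49.4, 58.6, 64.0 and 67.6 CPM after restraint, a log2 change of 0.34 ± 0.10 (edgeR adjusted p = 0.161). Over all mice it was the only 1 of the 9 that passed after restraint (background 1.14%), with a log2 change of 0.43 ± 0.07 (adjusted p = 0.000676) and a highest adjusted p of 0.00351 as each mouse was left out. With PSD averaged over restraint its change was -0.04 ± 0.05 (adjusted p = 0.611). After restraint the other 8 tested genes had log2 changes over all mice of at most 0.16.

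The sexes differed at baseline in 2 of the 9 genes. Among controls, females were lower than males in Psph (log2 -0.34, edgeR adjusted p = 0.0343) and Chac1 (-0.74, adjusted p = 0.0323), where 10.7% of all genes passed, and the count ran from 0 to 3 as mice were left out. It was 0 without female control 2, female control 3 or male control 4, and 1 without female control 1, male control 1 or male control 2. Trib3 had a log2 difference of -0.95 ± 0.36 (edgeR adjusted p = 0.0801) and did not pass. The difference between the sexes in the response to restraint, PSD or PSD + restraint passed for none of the 9 genes and for 0% of all genes in each. At an unadjusted p under 0.05 edgeR had 0, 3 and 2 of 9, against 4.25, 10.8 and 7.2% of all genes. DESeq2 called none. The 3 after PSD, all with the smaller value in females, were Mthfd2 (log2 difference -0.47 ± 0.18, adjusted p = 0.390), Shmt2 (-0.26 ± 0.10, adjusted p = 0.398) and Asns (-0.35 ± 0.15, adjusted p = 0.415).

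The further genes of the pathway were described by lists made with earlier results of these data known, and the 10 genes above were left out of each count. After PSD + restraint in males, 6 of 13 stress-linked ATF4 targets rose, where 2.56% of all genes passed, with a median log2 change of 0.57 over the list, against -0.01 over all genes. Those with the smallest p were Atf3, a transcription factor induced by many stresses (log2 4.06 ± 0.37, edgeR adjusted p = 0.000150), Ppp1r15a, which reverses the block on translation (0.75 ± 0.12, adjusted p = 0.00571), Cdsn (2.29 ± 0.42, adjusted p = 0.0141) and Nupr1 (0.57 ± 0.12, adjusted p = 0.0247). Atf3 also rose after restraint alone in both sexes. Of the 13 targets 10 were higher and 1 lower at an unadjusted p under 0.05 in edgeR, against 17.4% of all genes in either direction. Of 16 amino acid transport and synthesis genes 5 rose, where 2.56% of all genes passed, with a median of 0.35. The cationic amino acid carrier Slc7a3 (2.09 ± 0.35, adjusted p = 0.00775) and the glycine carrier Slc6a9 (0.95 ± 0.22, adjusted p = 0.0430) were among them. After PSD alone in males none of the 13 stress-linked targets passed in edgeR, with a median of 0.38. Of them 9 were higher at an unadjusted p under 0.05, against 8.85% of all genes in either direction. With PSD averaged over restraint in males, 2 of the 13 targets and 1 of the 16 transport and synthesis genes rose, where 0.454% of all genes passed. In females after PSD + restraint 1 of the 13 passed, Atf3 (3.27 ± 0.59, edgeR adjusted p = 0.00816), with a median of 0.32, where 2.2% of all genes passed. None of the 16 transport and synthesis genes passed there in edgeR, with a median of 0.05. Of them 7 were higher at an unadjusted p under 0.05, against 20.2% of all genes in either direction.

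In the folate cycle Mthfd1l, the mitochondrial formate-producing enzyme, rose after PSD + restraint in males (0.65 ± 0.16, edgeR adjusted p = 0.0472). The median of the 18 further genes of that list was -0.01. Mthfd1l also rose in PSD + restraint females (0.51 ± 0.12, adjusted p = 0.0262), while Gart, of purine synthesis, fell (-0.32 ± 0.07, adjusted p = 0.0195). Over all mice, PSD averaged over restraint raised Mthfd1l by 0.54 ± 0.07 (adjusted p = 4.60e-05).

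None of the 8 further serine genes passed after PSD + restraint in either sex. With PSD averaged over restraint Cbs, the first enzyme from homocysteine and serine to cysteine, rose in females (0.48 ± 0.13, edgeR adjusted p = 0.0423). Cth, the next enzyme of that route, rose over all mice (0.43 ± 0.13, adjusted p = 0.0484). That was 1 of 8 in each, where 2.88% and 2.52% of all genes passed. At an unadjusted p under 0.05 edgeR had 3 higher and 1 lower in females, against 27.4% of all genes. Over all mice it had 2 higher and 1 lower, against 25.1%. After PSD + restraint in males, 2 of 13 regulators of the pathway rose against controls, where 2.56% of all genes passed. They were Eif4ebp1 (0.68 ± 0.14, edgeR adjusted p = 0.0207) and Cebpg (0.37 ± 0.08, adjusted p = 0.0254). In the same comparison the transcript of Atf4 itself was at 0.26 ± 0.07 (edgeR adjusted p = 0.0846). That of Ddit3, which encodes CHOP, was at -0.01 ± 0.11 (adjusted p = 0.989). ATF4 is controlled largely at translation, which counts of RNA do not measure. None of 13 aminoacyl-tRNA synthetases and none of 13 endoplasmic reticulum chaperones passed in PSD + restraint males, with medians of 0.10 for both lists. At an unadjusted p under 0.05, edgeR had 2 of the synthetases and 3 of the chaperones higher and none lower, against 17.4% of all genes in either direction. In PSD + restraint females none passed either, with medians of -0.12 and -0.13, and at that p 3 synthetases and 2 chaperones were lower and none higher, against 20.2% of all genes. With PSD averaged over restraint in females 9 synthetases and 4 chaperones were lower at that p and none higher, against 27.4% of all genes, and none passed.

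**Figure D3:**
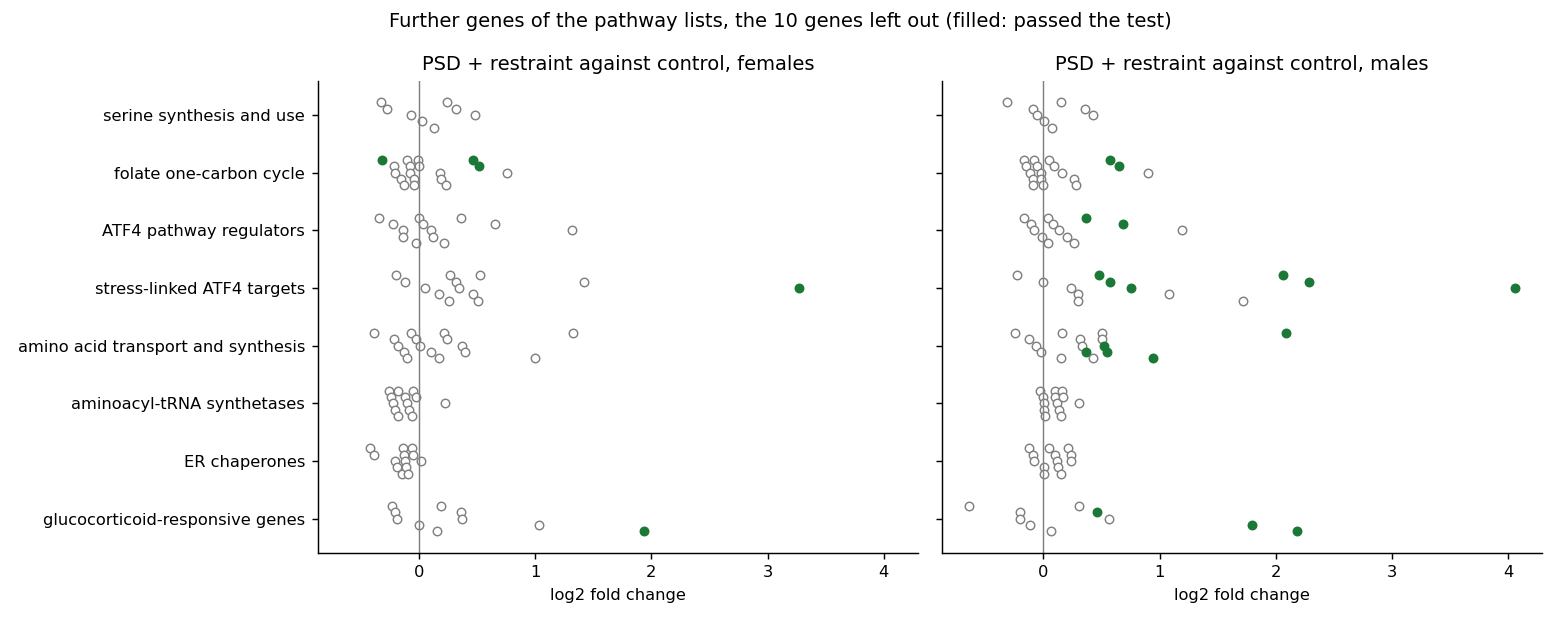
Log2 fold change (horizontal axis) after PSD + restraint against controls in females (left) and males (right) for further genes of 8 lists (rows), 1 circle per gene, spread vertically for legibility; filled circles passed the test. In males 6 of 13 stress-linked ATF4 targets and 5 of 16 amino acid transport and synthesis genes passed, and none of the 13 aminoacyl-tRNA synthetases or 13 endoplasmic reticulum chaperones.

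Within groups, mice with more Aldh1l2 also had more of some of the other genes, a measure that the choice of Aldh1l2 did not use. It was computed for the 9 other genes only. The share of all genes that follow Aldh1l2 this closely from mouse to mouse is therefore not known. Each value was taken as log2 CPM minus its group mean over the 28 mice, and labels were permuted within groups 100000 times, two-sided, an analysis added after the group values were seen. Of 9 correlations with Aldh1l2, that of Chac1 was r = 0.70 (permutation p = 0.000680, adjusted 0.00612) with rho = 0.60 (adjusted 0.0309). That of Mthfd2 was r = 0.75 (permutation p = 0.00165, adjusted 0.00743) with rho = 0.68 (adjusted 0.0309). Psph had r = 0.41 (permutation p = 0.0114, adjusted 0.0342) and rho = 0.47 (adjusted 0.0564). Without female controls 3 and 4, the mice farthest out in Aldh1l2, r was 0.66 for Chac1, 0.57 for Mthfd2 and 0.57 for Psph.

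Trib3 had r = 0.28 with Aldh1l2 within groups (adjusted permutation p = 0.303), Psat1 0.15 (adjusted 0.863), Phgdh -0.05 (adjusted 0.897) and Ddit4 -0.04 (adjusted 0.897). Shmt2 (r = 0.41) and Asns (r = 0.48) had adjusted permutation p of 0.0971 and 0.128. Psat1 and Phgdh, which rose with PSD over all mice, thus gave r near 0 with Aldh1l2 over the 28 mice. Female PSD 1, the mouse high in forebrain markers, deviated from its group mean by log2 0.84 in Psat1, 0.49 in Phgdh and -0.26 in Aldh1l2. The r without that mouse was not computed, so how far these values rest on it is not known.

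**Figure D4:**
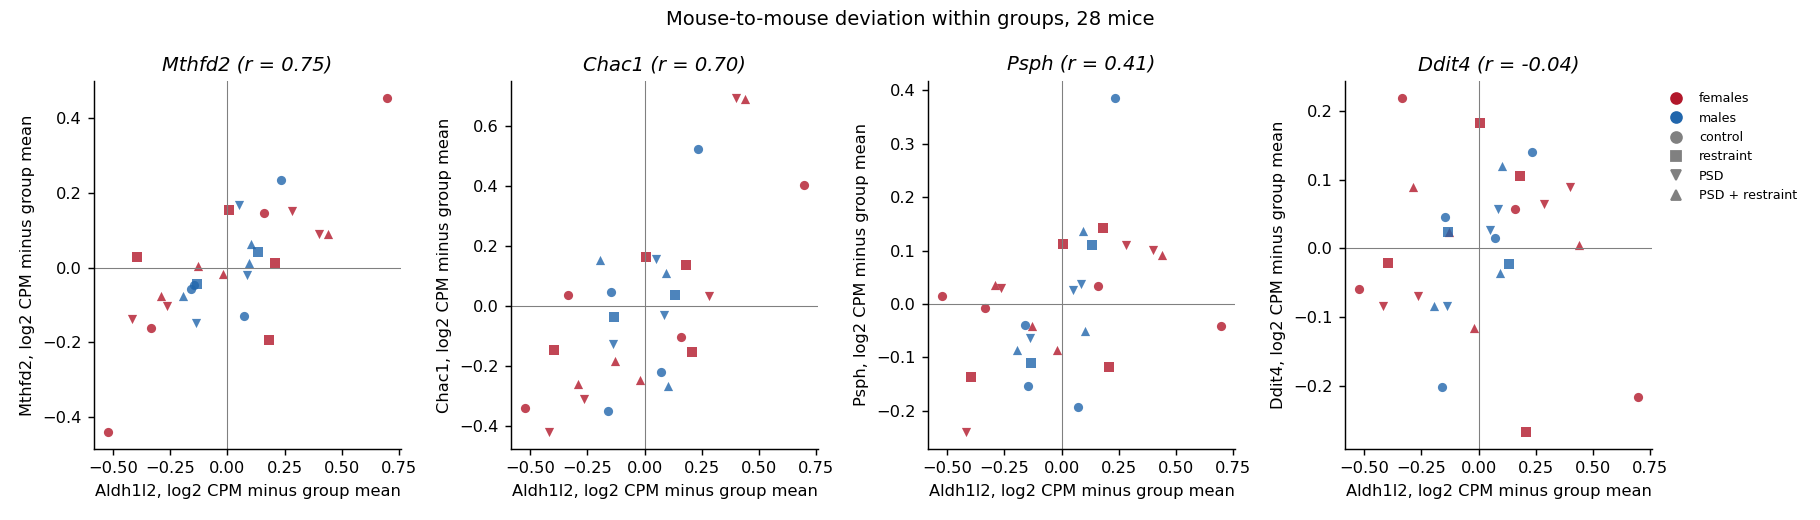
Deviation of log2 CPM from the group mean of Aldh1l2 (horizontal axis) against that of Mthfd2, Chac1, Psph and Ddit4 (vertical axes) in the 28 mice; colour marks sex and symbol the treatment. Mthfd2 (r = 0.75) and Chac1 (r = 0.70) lay along a rising line and Ddit4 (r = -0.04) did not.

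The genes most like Aldh1l2 over the 28 mice, after centring log2 CPM in each sex and keeping the differences between treatments, were found by Pearson's r among 15445 genes, as a description. They were Gdf15 (0.86), Mfge8 (0.82), Cyb5r1 (0.81), Mthfd2 (0.81), Slc7a3 (0.81), Vgf (0.77), Clu (0.77) and Serpinb11 (0.77). The points share the treatment groups and the libraries. Of the 10 genes, Psph came next (0.76, rank 9), then Chac1 (0.69), Trib3 (0.64), Psat1 (0.63) and Phgdh (0.60), with Asns (0.44), Shmt2 (0.44) and Ddit4 (0.07) far down the order. Slc7a3 went from 2.45 ± 1.30 CPM in control males (n = 4) to 8.12 ± 0.501 in PSD males (n = 3), and Gdf15 from 0.775 ± 0.699 to 2.2 ± 0.405.

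The ATF4 genes are known for a C/EBP-ATF response element, so RefSeq promoter windows of GRCm38.p6, 250 bases before to 50 after each start, were read for its core TGATGNAA on both strands. There were windows for 9 of the genes, 10 in all with a second start of Psat1, and none for Aldh1l2. The core stood in those of Asns, Chac1 and Trib3, 3 of 10, and in 3.97% of all 32851 windows. The stretches that hold it are shown with the core in capitals, on the strand of each gene, because this element is the usual mark of an ATF4 target; of these 3 genes only Trib3 passed with PSD in edgeR.
Asns, chr6:7693210-7693309, minus strand, bases -100 to -1: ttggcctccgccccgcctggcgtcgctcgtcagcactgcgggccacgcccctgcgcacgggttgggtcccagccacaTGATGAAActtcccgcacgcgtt
Chac1, chr2:119351003-119351102, plus strand, bases -239 to -140: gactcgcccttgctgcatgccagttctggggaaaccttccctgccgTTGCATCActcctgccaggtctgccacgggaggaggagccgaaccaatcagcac
Trib3, chr2:152344028-152344057, minus strand, bases 4 to 33: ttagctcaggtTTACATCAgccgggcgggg

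The windows of Mthfd2, Phgdh and Psat1, the 3 genes that passed in males with PSD averaged over restraint, did not hold those letters. The cyclic AMP element TGACGTCA was in no window of the 9 genes and in 1.79% of all windows. CCAAT, on either strand, was in 6 of their 10 windows and in 37.4% of all. The 150 bases before a RefSeq start of these 3 genes are shown with CCAAT or its reverse complement in capitals. For Psat1 the start shown is the one whose window held CCAAT, and the window of its other start held none. The starts of Mthfd2 and Psat1 shown lie inside the GENCODE gene ends given above.
Mthfd2, chr6:83317605-83317754, minus strand: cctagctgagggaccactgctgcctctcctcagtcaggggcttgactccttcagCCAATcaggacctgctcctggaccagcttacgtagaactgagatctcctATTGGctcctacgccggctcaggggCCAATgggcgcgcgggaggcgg
Phgdh, chr3:98339970-98340119, minus strand: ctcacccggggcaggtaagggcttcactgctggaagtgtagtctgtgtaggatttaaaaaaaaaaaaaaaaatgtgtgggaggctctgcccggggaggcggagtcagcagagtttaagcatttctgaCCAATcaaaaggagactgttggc
Psat1, chr19:15925060-15925209, minus strand: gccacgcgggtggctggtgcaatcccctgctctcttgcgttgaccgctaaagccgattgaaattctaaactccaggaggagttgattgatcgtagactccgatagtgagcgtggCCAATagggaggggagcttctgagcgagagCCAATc
The 3 stretches hold 3, 1 and 2 such matches. A match is a run of letters and was not tested as a binding site.

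Markers of other cell types moved with some of the groups. The summed level of 3 melanotrope markers (Pax7, Pcsk2 and Oacyl) was 377 to 1726 CPM in control males, 1737 to 2449 in PSD males and 1789 to 3309 in PSD + restraint males, while the 2 restrained males had 1246 and 1923. The lowest PSD male was just above the highest control, and a restrained male lay within the range of both PSD groups. In females it was 1193 to 1819 CPM in controls and 1718 to 4220 after PSD. The summed level of 4 pituicyte markers was 58.4 to 87.9 CPM in control females and 100.3 to 127 in PSD + restraint females. All 4 were higher at an unadjusted p under 0.05 in edgeR, against 20.2% of all genes in either direction, and none was called. The summed level of 6 macrophage markers was 86.3 to 91.9 and 104 to 118 CPM in the same groups. Of these 6, 2 passed (Cd68 and C1qa, both higher), where 2.2% of all genes did. In males 4 of 5 endothelial markers were lower at an unadjusted p under 0.05 after PSD and after PSD + restraint, none of them called in edgeR. The shares of all genes at that p were 8.85 and 17.4%, in either direction. Summed levels were 173 to 217 CPM in controls, 162 to 182 after PSD and 154 to 179 after PSD + restraint. The part of these cell types in the results was not tested. Neither melanotropes nor another cell type was isolated, and the part of tissue makeup in the values of the 10 genes was not tested directly. With a score of intermediate and posterior lobe markers as a term in the fit, the male log2 change after PSD + restraint was 1.11 for Aldh1l2, 0.65 for Psat1 (edgeR adjusted p = 0.0153), 0.45 for Mthfd2 (adjusted p = 0.0354) and 0.43 for Phgdh (adjusted p = 0.100). Without male control 1 they were 1.11, 0.68, 0.46 and 0.46. The summed level of 7 forebrain markers was 63.5 to 99.5 CPM in control males and 53.2 to 73.0 in PSD + restraint males. It was 97.9 to 108 CPM in control females and 94.6 to 102 in restrained females. Female PSD 1 had 234 CPM, female PSD + restraint 4 had 183 and female PSD 3 had 138. The other females with PSD had 85.7 to 106 CPM. Female PSD + restraint 4 had the most Psat1 (26.3 CPM) and Phgdh (17.3 CPM) of its group, and female PSD 3 the most of neither.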

How the data were processed

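RNA of the whole pituitary of 28 mice was sequenced from stranded poly(A) libraries. The authors used MapSplice for alignment to mm10 and HTSeq 0.9.1 for counts per gene, per the submitters' processing notes and the study's methods; the HTSeq strand setting is not given in the sources used here. The deposited table of raw read counts was used as it stands. A second deposited table, the same counts divided by a factor per mouse (DESeq2 1.16.1 per the processing notes), was not used.

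Counts were filtered with filterByExpr, scaled by TMM and tested with edgeR 4.0.16 (quasi-likelihood F test, limma 3.58.1, R 4.3.3) in females, in males and over all mice with sex as a term. P-values were adjusted by Benjamini-Hochberg over all genes tested. A gene was called at an adjusted p of at most 0.05 and a fold change of at least 1.25, higher or lower. Log2 CPM used a prior count of 2. The p-values measure the spread between these mice. Depth ran from 14024465 to 52948531 counts per mouse.

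The members and lists were chosen with earlier results of these data known. Aldh1l2, chosen by its change after sleep deprivation, was left out of every count and test of a comparison, which departs from the design as first written, so counts cover 9 genes. All 10 genes are named in every comparison where they passed; of the further lists at most 4 called genes with the smallest p are named per comparison, and of the genes most like Aldh1l2 the first 8 among those with a mean of at least 1 CPM. Results for 1 gene of the folate list are not reported here.

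Alternatives were DESeq2 1.42.0, its size factors, no filter, at least 10 counts in every mouse, a replicate block, fits of only the groups compared, a score of intermediate and posterior lobe markers, no fold threshold, robust dispersion and leaving out each mouse. PSD averaged over restraint within each sex, a forebrain score and leaving out both mice apart in tissue markers were chosen after seeing the data. Replicate numbers were checked for pairing: the deviations of same-numbered mice correlated with a median of -0.04 in females and -0.10 in males, so the numbers were not used as pairs. No pair of libraries was a duplicate (37 pairs compared; chi-square per degree of freedom was 7.48 or more). On simulated counts with known 2-fold changes for PSD against control, edgeR recovered 155 of 193 genes in females with 9 false calls, on 18038 genes. In males it recovered 146 of 196 with 8 false calls, on 18388 genes. DESeq2 recovered 157 of 193 in females with 18 false calls and 157 of 196 in males with 31. Over all mice edgeR made 9 false calls and DESeq2 4. Changes under 2-fold were not simulated, so the recovery of smaller changes is not known. Shares of all genes are those of edgeR, and the share that DESeq2 called is not given.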

Additional observations from a re-analysis of the deposited data

Results flagged for a closer look

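Each of the 10 genes was examined in each group of 4 mice, 50 sets in all that reuse the same mice. A mouse stood far from its group in 3 sets. Chance flags about 1 in 20 sets, so 3 is near the number that chance gives. Chac1 was at 13.47 CPM in female PSD + restraint 3, against 6.945 to 7.32 CPM in the other 3 mice. The same mouse had 9.901 CPM of Trib3, against 5.408 to 6.09 CPM in the others, and the most Aldh1l2 of its group (17.6 CPM). Trib3 was at 7.726 CPM in female restraint 2, against 2.694 to 2.917 CPM in the other 3.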

How the results depend on the processing

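Counts are of the 9 tested genes. With DESeq2 the count after PSD was 1 in females and 2 in males, for PSD + restraint against restraint in males 2, for PSD averaged over restraint 2 in females and 5 in males, and for control females against males 1. PSD against control over all mice gave 1 with DESeq2 size factors, no filter, robust dispersion or a forebrain score, and 0 with only the groups compared, the lobe score or both mice apart in tissue markers left out. PSD in males gave 1 with no filter. With only the groups compared, restraint in males gave 0, PSD + restraint in males 2 and control females against males 1. With a replicate block, restraint in males gave 0, PSD averaged over restraint in males 1 (Mthfd2) and PSD against control over all mice 0; after PSD + restraint in males Phgdh lost its call and Psph gained one. The numbers mark different mice, and under the block no other count moved by over 1.5 times. With the lobe score PSD + restraint gave 2 in males and 0 over all mice, and with no fold threshold 5 over all mice. Without both mice apart in tissue markers PSD + restraint in males gave 2 and control females against males 1. PSD averaged over restraint gave 0 in females alone and 3 in males alone.

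Leaving out each mouse gave 0 to 3 for control females against males, 0 to 4 for PSD and 0 to 4 for PSD + restraint over all mice, 1 to 5 for PSD + restraint, 0 to 1 for PSD, 0 to 1 for restraint and 0 to 4 for PSD averaged over restraint in males, and 0 to 3 for PSD and 0 to 2 for PSD averaged over restraint in females. The cause was not tested. Leaving out a restrained male left 1 mouse in that group, assumed to vary like the others. Of 6273 recomputed values of the 9 genes, 136 lost a call, 46 gained one and 182 changed sign with neither value called. Aldh1l2 changed sign in 14 of 697 values. PSD averaged over restraint and the interactions need all groups, so they have no value with only the groups compared.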

Other observations

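Genes that respond to glucocorticoids, which also induce Ddit4, were called in some comparisons with restraint and some with PSD. After PSD + restraint in males 3 of 10 rose, where 2.56% of all genes passed, Per1 (log2 1.80 ± 0.34, edgeR adjusted p = 0.0168), Dusp1 (2.18 ± 0.45, adjusted p = 0.0228) and Nfkbia (0.46 ± 0.11, adjusted p = 0.0469). The list moved in both directions there, with 5 higher and 2 lower at an unadjusted p under 0.05 in edgeR, against 17.4% of all genes. After restraint alone Per1 rose in females (1.62 ± 0.17, edgeR adjusted p = 0.000275) and Dusp1 in males (2.85 ± 0.48, adjusted p = 0.0269). That was 1 of 10 in each sex, where 0.543% and 0.296% of all genes passed. With PSD averaged over restraint 1 of 10 fell in each sex, Nfkbia in females (-0.54 ± 0.12, edgeR adjusted p = 0.0261) and Zbtb16 in males (-0.69 ± 0.13, adjusted p = 0.0399), where 2.88% and 0.454% of all genes passed. Atf3 also rose after restraint alone, by 2.85 ± 0.58 in females (adjusted p = 0.0363) and 3.34 ± 0.39 in males (adjusted p = 0.00297). With PSD averaged over restraint over all mice, Atf3 had a log2 change of 0.60 ± 0.28 (adjusted p = 0.180), while Stc2 (0.90 ± 0.18, adjusted p = 0.00520) and Slc7a3 (1.27 ± 0.24, adjusted p = 0.00267) rose.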
